A study of Homo sapiens with 9 samples.

Results

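The transcripts of 10 subunits that are specific to the SIN3 histone deacetylase complex were followed in HEK293T cells after depletion of SIN3A or SIN3B. The set was listed by name, with earlier results of these data known. It holds the SIN3-associated polypeptides SAP30, SAP30L and SAP130, the SDS3-type proteins SUDS3, BRMS1 and BRMS1L, the ARID4 proteins ARID4A and ARID4B, and the inhibitor of growth proteins ING1 and ING2. All 10 were found among the 58734 Ensembl genes of the count table, each by one identifier, and all 10 passed the filter on low counts that left 16686 genes for testing. HEK293T is an established line from human embryonic kidney, transformed by adenovirus sequences and expressing large T antigen of SV40. An siRNA was delivered by lipofection at 10 nM, RNA was taken after 36 h, and its poly-A fraction was sequenced in 3 libraries each for control siRNA, SIN3A siRNA and SIN3B siRNA. The control group thus carries the transfection and a control siRNA, and every group is the same single cell line. The sample titles give the groups, whereas the treatment text of every sample names control siRNA.

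SIN3A and SIN3B are scaffolds without enzymatic activity. They are brought to promoters by DNA-binding factors such as the MAX partner MXD1 and hold HDAC1 and HDAC2 with the histone chaperones RBBP4 and RBBP7. The subunits described here complete the assembly: SUDS3 links the deacetylases to the scaffold, SAP30 and SAP30L bind both scaffold and DNA, ARID4A and ARID4B carry DNA-binding and histone-reading domains, and ING1 and ING2 read methylated histone tails through a PHD finger. Together with SIN3A they form the classical deacetylase complex, while SIN3B is also found in a smaller complex with PHF12, MORF4L1 and KDM5 demethylases. Both complexes are known as repressors of cell-cycle and differentiation genes.

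Depth was alike in the 9 libraries, with total counts from 22542798 to 27084884. At least 98% of the nonzero counts in each library were multiples of 4, so the smallest step was taken as 4 counts. A floor of 3 such steps, 12 deposited counts, lay at 0.443 to 0.532 CPM (counts scaled to library size, here with TMM factors), well under every member, and covers counting error only. Levels of the target genes matched the titles: SIN3A was at 146 ± 4.0 CPM (SD, n = 3) with control siRNA, 47.3 ± 2.5 with SIN3A siRNA and 145 ± 4.8 with SIN3B siRNA, and SIN3B was at 96.2 ± 4.7, 96.9 ± 11 and 55.1 ± 3.6 CPM in the same order. The 3 SIN3A siRNA libraries differed more among themselves (chi-square per degree of freedom 3.53 to 7.37 on counts divided by 4) than the 3 libraries of the other groups (1.42 to 1.98), and replicate 1 stood apart from replicates 2 and 3 on the third principal component. Whether replicates were separate transfections is not stated, so p-values reflect only how far libraries of a group scatter, a scatter that may be technical. Among genes chosen as marks of the line, NEFM, NEFL, INA, VIM and EYA1 were at 24.5 to 773 CPM in control libraries, PAX2 was at 4.12 and LHX1 at 3.03, and PAX8 was under the floor. Of 11 markers of blood, liver, squamous, fibroblast and endothelial cells, CD14 was the only one tested, at 0.812 to 1.55 CPM in the group means. In such bulk libraries fewer cells of a type and less RNA per cell cannot be told apart.

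With control siRNA all 10 subunits were expressed, and per kilobase of exon their levels differed widely. BRMS1 (20.5 ± 1.1 CPM per kilobase), SAP130 (20.1 ± 1.4), SUDS3 (18.2 ± 1.0) and SAP30 (17.3 ± 2.3) came first, at the 84th to 86th percentile of the tested genes, and the ranges of neighbours in this order overlapped. ING2 followed at 10.5 ± 1.3 and BRMS1L at 6.89 ± 0.64, each apart from its neighbours in all 3 libraries. SAP30L (5.16 ± 0.62) and ARID4B (4.93 ± 0.58) overlapped with each other. ING1 (3.03 ± 0.53) and ARID4A (2.43 ± 0.12, at the 42nd percentile) were lowest and also overlapped. In each of the 4 paralog pairs one gene thus dominated, and the abundant partner was SAP30, BRMS1, ARID4B and ING2. With the longest transcript in place of the union of exons as length, SAP130 and SUDS3 changed places, as did SAP30L and ARID4B, and the other ranks stayed.

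The first comparison asked what happened to the subunits when SIN3A was reduced. Transcripts of 7 of the 10 rose (SAP30L, SAP130, BRMS1, ARID4A, ARID4B, ING1 and ING2), by 1.23-fold to 1.83-fold, and 0 fell, by the quasi-likelihood test of edgeR with adjustment over the whole table. The other 3 (SAP30, SUDS3 and BRMS1L) did not pass the test and had log2 fold changes of 0.20 to 0.23. Under upper-quartile factors 4 were called, and with offsets for GC content and length 9 were. In each of the 16 other settings the value of every member stayed above 0. The median log2 fold change of the 10 was 0.35, beside -0.002 over all tested genes. Among all tested genes 22.7% were called in this comparison, 12% as higher and 10.8% as lower, and among the 9912 tested genes above 10 mean CPM 30.3% were called. The libraries of the 2 groups did not overlap for 8 of the 10 subunits, against 36.4% of all tested genes. The split of calls over all genes depended on the scaling, with 1997 higher and 1794 lower here, 1340 and 2298 under upper-quartile factors, and 2929 and 1628 with offsets for GC content and length.

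With SIN3B siRNA, the subject of the second comparison, the subunits parted. BRMS1L, ARID4B and ARID4A rose, by 1.33-fold to 1.69-fold, SUDS3 and SAP130 fell to 0.711 and 0.843 of control, and 5 were not called. Without SIN3B siRNA replicate 2 or replicate 3, 3 of the 10 were called. The median log2 fold change of the 10 was -0.048, beside -0.015 over all tested genes. Of all tested genes 23.6% were called, 12% as higher and 11.6% as lower, and 34% of those above 10 mean CPM. The groups did not overlap for 5 of the 10, against 43% of all tested genes.

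The direct comparison of both knockdowns, which does not use the control libraries as a reference, separated 8 of the 10 subunits. SAP30L, SAP130, SUDS3, BRMS1, ARID4A, ING1 and ING2 were higher with SIN3A siRNA than with SIN3B siRNA, by 1.37-fold to 1.65-fold, and BRMS1L was lower, at 0.691. ARID4B (log2 fold change -0.11, 95% interval -0.35 to 0.13) and SAP30 (-0.02, -0.30 to 0.25) were not called, and these intervals bound the differences that may remain. Of all tested genes 27.1% were called in this comparison, 14.4% as higher and 12.6% as lower, and 37.5% of those above 10 mean CPM. The groups did not overlap for 8 of the 10, against 39.3% of all tested genes. Both comparisons with control share the same 3 control libraries, so their values are given side by side and only the direct comparison is read as a difference between the siRNAs. SIN3A siRNA left SIN3A at 32.5% of control, and SIN3B siRNA left SIN3B at 57.3%. A difference in depth of knockdown and a difference between the scaffolds cannot be told apart here.

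**Figure D1:**
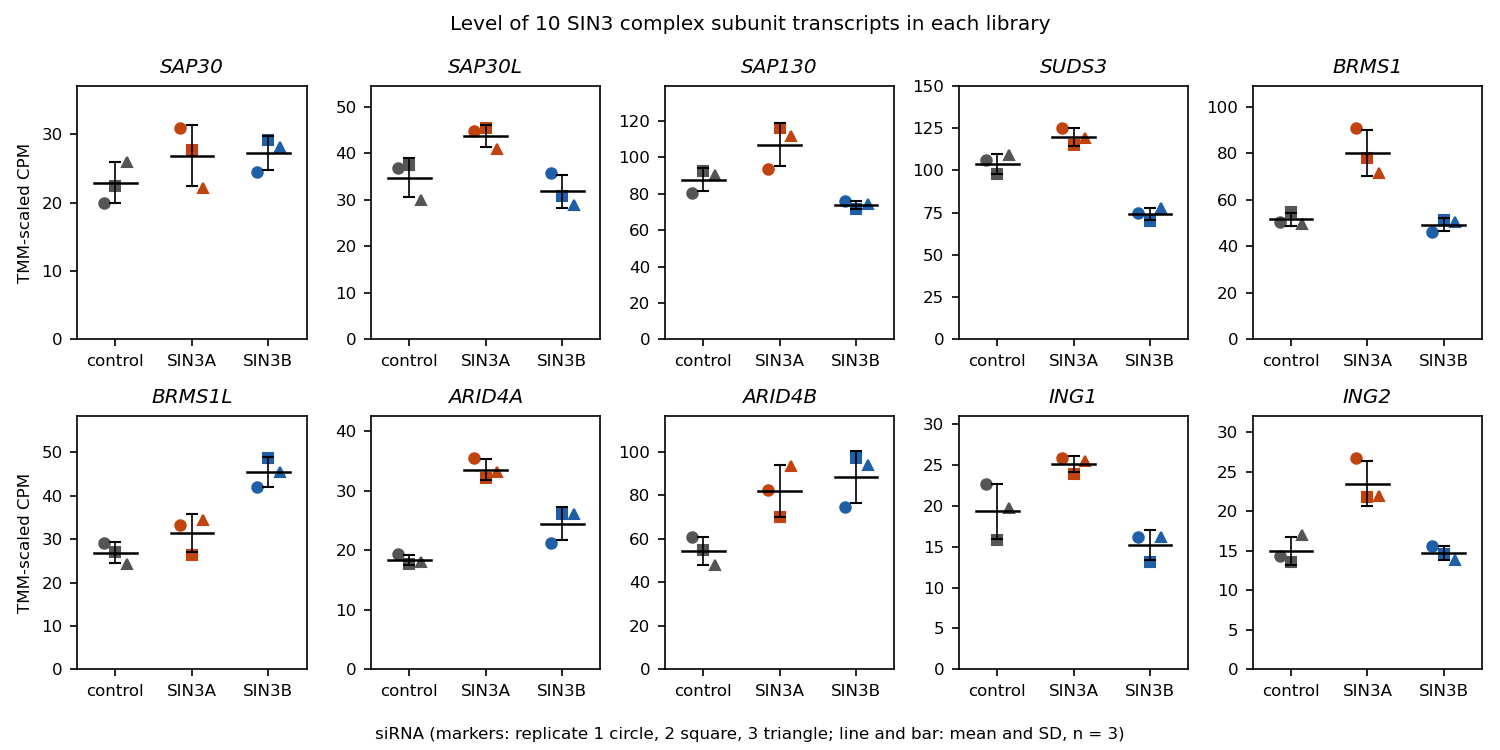
TMM-scaled CPM (y axis, from 0) of each subunit in each library, grouped by siRNA on the x axis, with the mean and SD of 3 libraries as lines. ARID4A and ARID4B lie above control with both siRNAs, SUDS3 and SAP130 lie on opposite sides of control with the SIN3A and the SIN3B siRNA, and SAP30 overlaps in all groups.

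ARID4A and ARID4B bind DNA and histones, and ARID4A was first known as a partner of the retinoblastoma protein. They were the only members called higher in both comparisons with control. ARID4A (ENSG00000032219, chromosome 14, 58298385 to 58373887 on the plus strand of GRCh38, 26 merged exons) had 19.4, 17.7 and 18.1 CPM with control siRNA, 35.5, 32.1 and 33.2 with SIN3A siRNA, and 21.3, 26.1 and 26.1 with SIN3B siRNA. All SIN3A siRNA libraries lay above all SIN3B siRNA libraries, and these lay above all controls. Its log2 fold change was 0.87 ± 0.11 (SE, edgeR adjusted p = 2.4e-05) for SIN3A siRNA and 0.41 ± 0.11 (edgeR adjusted p = 0.011) for SIN3B siRNA, and the difference between the siRNAs was 0.46 ± 0.11 (edgeR adjusted p = 0.0040). The rise with SIN3A siRNA was the largest of any member in either comparison with control. The smaller rise with SIN3B siRNA did not pass once GC and length offsets were in the fit, at 0.142 (edgeR adjusted p = 0.372), and without control replicate 2 (0.372, edgeR adjusted p = 0.0582), SIN3B siRNA replicate 2 (0.365, 0.0637) or SIN3B siRNA replicate 3 (0.366, 0.0609).

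ARID4B (ENSG00000054267, chromosome 1, 235131634 to 235328219 on the minus strand, 37 merged exons) had 60.7, 55.1 and 47.9 CPM with control siRNA, 82.6, 70.3 and 93.5 with SIN3A siRNA, and 74.5, 97.1 and 94.1 with SIN3B siRNA. The control libraries lay below both other groups, which overlapped. The log2 fold changes were 0.59 ± 0.12 (edgeR adjusted p = 0.0014) for SIN3A siRNA and 0.70 ± 0.12 (edgeR adjusted p = 0.00026) for SIN3B siRNA. Exons of ARID4B share 1603 bases, 14.48% of its exon length, with RBM34 on the same strand. RBM34 was counted at 0.549 CPM in control libraries and had log2 fold changes of 1.21 ± 0.57 and 0.67 ± 0.57 that were not called (edgeR adjusted p = 0.14 and 0.46). Reads from the shared bases cannot be told apart, and how the authors' counting treated them is not given in the sources used here.

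Start regions of both ARID4 genes are shown because these are the members that rose with both siRNAs. The sequences are from RefSeq (GRCh38.p14), 5′ to 3′ on the strand of the gene, cut to the stretch before the RefSeq start that lies in no annotated exon of the gene. Capitals mark CCAAT or ATTGG (the CCAAT box on either strand) and GGGCGG or CCGCCC (the GC box on either strand). The ARID4A stretch is chr14:58298305-58298384 on the plus strand and the ARID4B stretch is chr1:235327488-235327737 on the minus strand. The first ends just before the annotated start of ARID4A at 58298385. The second lies inside the annotated ARID4B gene, which starts at 235328219 on the minus strand. The stretches also differ in length, so they are not equivalent places. Their box counts are given for each alone and are not read as a difference between the genes.
ARID4A: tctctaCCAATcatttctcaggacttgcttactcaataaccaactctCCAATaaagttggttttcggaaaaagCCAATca
ARID4B: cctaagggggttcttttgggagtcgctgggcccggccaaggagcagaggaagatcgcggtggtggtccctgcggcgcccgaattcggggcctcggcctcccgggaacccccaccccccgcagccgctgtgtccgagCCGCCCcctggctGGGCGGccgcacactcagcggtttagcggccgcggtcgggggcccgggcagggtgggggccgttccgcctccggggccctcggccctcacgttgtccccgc
The ARID4A stretch of 80 bases holds 3 CCAAT boxes and 0 GC boxes. The ARID4B stretch of 250 bases holds 0 CCAAT boxes and 2 GC boxes. Over the whole RefSeq window, 250 bases before to 50 after the start, ARID4A held 6 CCAAT boxes, a number reached by 0.122% of all 35116 windows. This was the largest number among the 14 windows of the 10 members. A window of SAP130, which was called lower with SIN3B siRNA, held 4, reached by 0.991% of all windows. The ARID4B window held 0. The E-box CACGTG, the site of MAX dimers, stood in 0 of the 14 windows of the 10 members, beside 7.3% of all windows. The forkhead site (GTAAACA or TGTTTAC) stood in 1 of the 14 and in 3.4% of all, and the TGIF site (TGACAG or CTGTCA) in 3 of the 14 and in 15.8% of all. At least 1 CCAAT box stood in 6 of the 14 windows, those of 5 members, and in 34.6% of all windows. At least 1 GC box stood in 11 of the 14, those of 8 members, and in 45.0% of all windows. These are matches of letters in a fixed window and no measure of binding.

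Across 9 libraries, the genes above 10 mean CPM with the pattern closest to ARID4A were RHPN2, XPR1, USP37, FAM174A and GNAI2. The root mean square distance of their centred log2 CPM from that of ARID4A was 0.088, 0.093, 0.098, 0.109 and 0.117, where ARID4A itself varied by 0.36 around its mean. XPR1, a phosphate exporter, was at 44.1, 78.1 and 63.1 CPM in the control, SIN3A siRNA and SIN3B siRNA means, and USP37, a deubiquitinase, at 30.8, 48.9 and 37.5. These 5, none of them a member, were the nearest of 9911 candidates.

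SUDS3, BRMS1 and BRMS1L share a homologous core, and each moved in its own way. SUDS3 (ENSG00000111707, chromosome 12, 118376380 to 118418031, plus strand) had 106, 97.7 and 109 CPM with control siRNA, 125, 115 and 119 with SIN3A siRNA, and 74.7, 70.3 and 77.5 with SIN3B siRNA. The 3 groups did not overlap. It fell with SIN3B siRNA (log2 fold change -0.49 ± 0.08, edgeR adjusted p = 0.00014) and was at 0.20 ± 0.08 with SIN3A siRNA, which did not pass the test (edgeR adjusted p = 0.064). That value passed with DESeq2 (0.205, adjusted p = 0.0315) and with offsets for GC content and length (0.246, edgeR adjusted p = 0.0112). The difference between the siRNAs, 0.69 ± 0.08 (edgeR adjusted p = 1.9e-06), had the lowest adjusted p of any member in the direct comparison. A pseudogene, SUDS3P1, shares 6.68% of the 50-base stretches of the longest SUDS3 transcript, so a small part of the reads could belong to either.

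BRMS1, first described as a metastasis suppressor (ENSG00000174744, chromosome 11, 66337333 to 66345125, minus strand), had 50.4, 54.8 and 49.5 CPM with control siRNA, 90.7, 78.1 and 71.3 with SIN3A siRNA, and 46.1, 51.3 and 50.6 with SIN3B siRNA. Only the SIN3A siRNA libraries stood out, all above the rest. The log2 fold change was 0.63 ± 0.10 (edgeR adjusted p = 0.00012) with SIN3A siRNA and -0.06 ± 0.10 (95% interval -0.27 to 0.14, edgeR adjusted p = 0.70) with SIN3B siRNA, and the siRNAs differed by 0.70 ± 0.10 (edgeR adjusted p = 2.3e-05).

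BRMS1L, its paralog (ENSG00000100916, chromosome 14, 35826318 to 35932325, plus strand), differed between the siRNAs in the other direction. It had 29.2, 27.1 and 24.3 CPM with control siRNA, 33.3, 26.4 and 34.3 with SIN3A siRNA, and 41.9, 48.6 and 45.5 with SIN3B siRNA. The SIN3B siRNA libraries lay above all others, and the control and SIN3A siRNA libraries overlapped. The log2 fold change was 0.76 ± 0.11 (edgeR adjusted p = 1e-04) with SIN3B siRNA and 0.22 ± 0.11 (edgeR adjusted p = 0.18) with SIN3A siRNA, and the siRNAs differed by -0.53 ± 0.11 (SIN3A minus SIN3B, edgeR adjusted p = 0.0015). BRMS1L passed in the SIN3A comparison without SIN3A siRNA replicate 2 (0.331, edgeR adjusted p = 0.0426). With offsets for GC content and length the rise with SIN3B siRNA was 0.509 (edgeR adjusted p = 0.000396). BRMS1L shares 341 exon bases, 8.75% of its exon length, with the antisense gene AL162311.3 on the opposite strand.

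**Figure D2:**
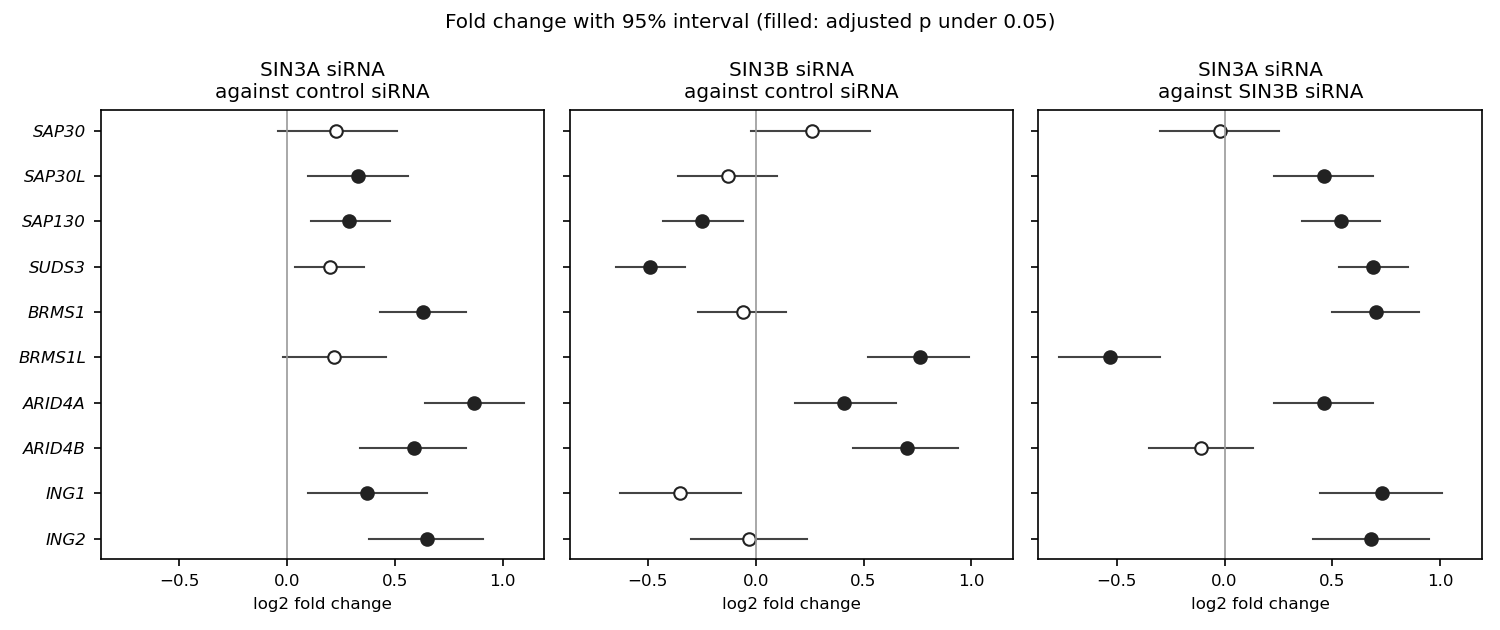
Log2 fold change (x axis) of each subunit in the 3 comparisons, with its 95% interval from the fit, filled where the adjusted p was under 0.05. In the SIN3A siRNA panel every point lies to the right of 0, with intervals that cross 0 for SAP30 and BRMS1L, while points of the SIN3B siRNA panel reach from -0.49 for SUDS3 to 0.76 for BRMS1L.

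The ratio of paralogs within a pair followed from these changes. Per kilobase, BRMS1 exceeded BRMS1L by 2.67, 3.14 and 3.16 times in the control libraries, by 4.22, 4.58 and 3.22 times with SIN3A siRNA, and by 1.70, 1.63 and 1.72 times with SIN3B siRNA. The 3 groups did not overlap, and the SIN3B siRNA libraries were lowest. ARID4A stood at 0.467, 0.470 and 0.552 of ARID4B in control libraries and at 0.418, 0.393 and 0.406 with SIN3B siRNA, where again no library overlapped, and at 0.629, 0.668 and 0.520 with SIN3A siRNA, which overlapped with control. For SAP30 to SAP30L the mean ratio was 3.43 ± 0.88, 3.14 ± 0.39 and 4.45 ± 0.83 in control, SIN3A siRNA and SIN3B siRNA libraries, and for ING1 to ING2 it was 0.290 ± 0.054, 0.240 ± 0.023 and 0.232 ± 0.031. For both of these pairs the libraries of all 3 groups overlapped. The ratios are a description of these libraries and were not tested.

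**Figure D3:**
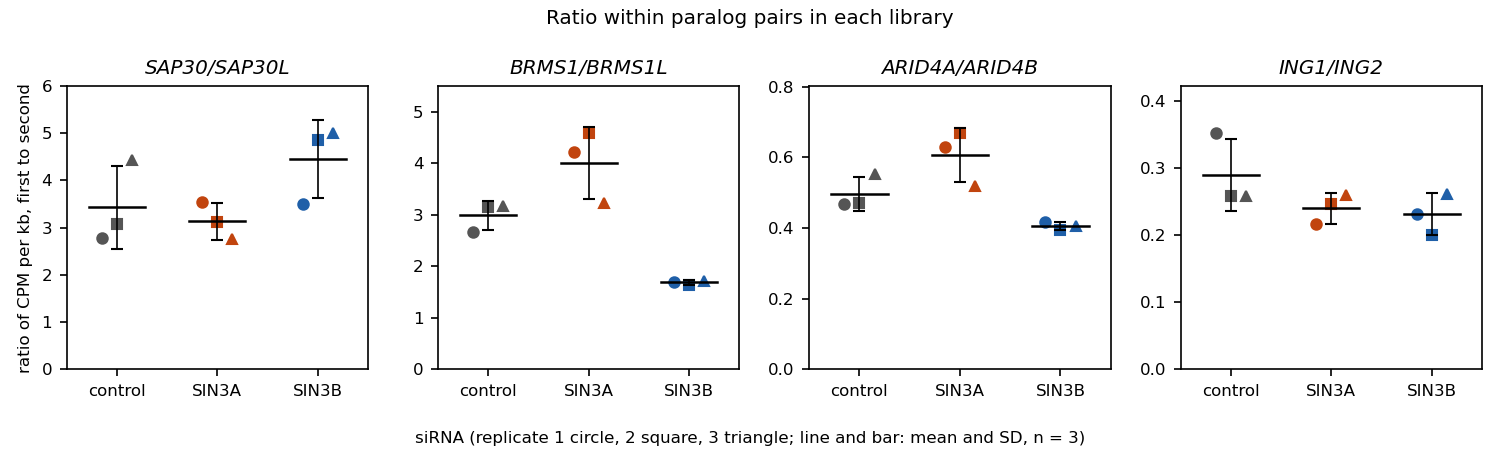
Ratio of CPM per kilobase within each paralog pair (y axis, from 0) in each library, by siRNA, with mean and SD of 3 libraries. The BRMS1 to BRMS1L ratio separates the groups, at 2.99 ± 0.28 in control, 4.01 ± 0.70 with SIN3A siRNA and 1.69 ± 0.046 with SIN3B siRNA.

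Of the SAP proteins, SAP130 was the one with opposite calls. SAP130 (ENSG00000136715, chromosome 2, 127941217 to 128028120, minus strand) had 80.6, 92.5 and 90.1 CPM with control siRNA, 93.8, 116 and 112 with SIN3A siRNA, and 75.8, 71.6 and 74.4 with SIN3B siRNA. The groups did not overlap, although the lowest SIN3A siRNA library was only just above the highest control. The log2 fold changes were 0.29 ± 0.09 (edgeR adjusted p = 0.021) and -0.25 ± 0.09 (edgeR adjusted p = 0.049), and the difference between the siRNAs was 0.54 ± 0.09 (edgeR adjusted p = 0.00014). The call with SIN3A siRNA was lost under upper-quartile factors (0.224, edgeR adjusted p = 0.0736) and without control replicate 1 (0.235, 0.12), SIN3A siRNA replicate 2 (0.233, 0.0864) or SIN3A siRNA replicate 3 (0.262, 0.0538). The call with SIN3B siRNA was lost in 9 of 16 other settings, among them the offsets for GC content and length (-0.119, edgeR adjusted p = 0.315) and leaving out control replicate 2 (-0.219, 0.171), control replicate 3 (-0.225, 0.159) or SIN3B siRNA replicate 1 (-0.282, 0.0706), 2 (-0.224, 0.173) or 3 (-0.251, 0.123).

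SAP30L (ENSG00000164576, chromosome 5, 154445957 to 154461054, plus strand) had 36.9, 37.6 and 30.0 CPM with control siRNA, 44.7, 45.4 and 40.9 with SIN3A siRNA, and 35.8, 30.8 and 28.8 with SIN3B siRNA. The SIN3A siRNA libraries were the highest, and the other groups overlapped. The log2 fold change was 0.33 ± 0.11 (edgeR adjusted p = 0.039) with SIN3A siRNA and -0.13 ± 0.11 (edgeR adjusted p = 0.45) with SIN3B siRNA, with a difference of 0.46 ± 0.11 (edgeR adjusted p = 0.0041). The first of these was lost in 9 of 16 other settings, among them upper-quartile factors (0.257, edgeR adjusted p = 0.108) and leaving out control replicate 1 (0.368, 0.0623), 2 (0.378, 0.0553) or 3 (0.243, 0.179) or SIN3A siRNA replicate 1 (0.325, 0.0603) or 2 (0.297, 0.0966).

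SAP30, the founding member (ENSG00000164105, chromosome 4, 173369969 to 173377532, plus strand), had 20, 22.5 and 26.0 CPM with control siRNA, 30.9, 27.7 and 22.1 with SIN3A siRNA, and 24.5, 29.2 and 28.2 with SIN3B siRNA. All groups overlapped. Its log2 fold changes of 0.23 ± 0.13 (95% interval -0.04 to 0.51, edgeR adjusted p = 0.22) and 0.26 ± 0.13 (-0.02 to 0.53, edgeR adjusted p = 0.18) were not called, and it was the only member called in none of the 3 comparisons. With offsets for GC content and length both passed, at 0.337 and 0.373 (edgeR adjusted p = 0.0377 and 0.0269). The uncharacterised gene AC069236.1 shares 5.57% of the 50-base stretches of its longest transcript.

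The ING proteins were both higher with SIN3A siRNA. ING2 (ENSG00000168556, chromosome 4, 183504994 to 183511096, plus strand) had 14.3, 13.6 and 17.0 CPM with control siRNA, 26.7, 21.8 and 21.9 with SIN3A siRNA, and 15.6, 14.6 and 13.8 with SIN3B siRNA. The SIN3A siRNA libraries lay above the rest, and the other groups overlapped. The log2 fold change was 0.65 ± 0.13 (edgeR adjusted p = 0.0014) with SIN3A siRNA and -0.03 ± 0.13 (95% interval -0.30 to 0.24, edgeR adjusted p = 0.91) with SIN3B siRNA, and the siRNAs differed by 0.68 ± 0.13 (edgeR adjusted p = 0.00057).

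ING1 (ENSG00000153487, chromosome 13, 110712736 to 110723339, plus strand) had 22.6, 15.8 and 19.7 CPM with control siRNA, 25.8, 23.9 and 25.5 with SIN3A siRNA, and 16.2, 13.1 and 16.2 with SIN3B siRNA. Control replicate 2 fell within the SIN3B siRNA range, and all SIN3A siRNA libraries were above all others. The log2 fold change was 0.37 ± 0.13 (edgeR adjusted p = 0.049) with SIN3A siRNA and -0.35 ± 0.14 (edgeR adjusted p = 0.068) with SIN3B siRNA, which lie on either side of the threshold, and the difference between the siRNAs was 0.73 ± 0.13 (edgeR adjusted p = 0.00047). The rise with SIN3A siRNA was lost in 10 of 16 other settings, down to 0.243 (edgeR adjusted p = 0.255) without control replicate 2, where SIN3B siRNA gave a fall of -0.491 (edgeR adjusted p = 0.0210). It was also lost without control replicate 3 (0.399, 0.0971) or SIN3A siRNA replicate 1 (0.373, 0.0759), 2 (0.407, 0.0598) or 3 (0.363, 0.0884). ING1 shares 326 exon bases with CARS2 on the opposite strand, and CARS2 was not called with either siRNA (0.18 ± 0.09 and -0.04 ± 0.09, edgeR adjusted p = 0.17 and 0.81).

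**Figure D4:**
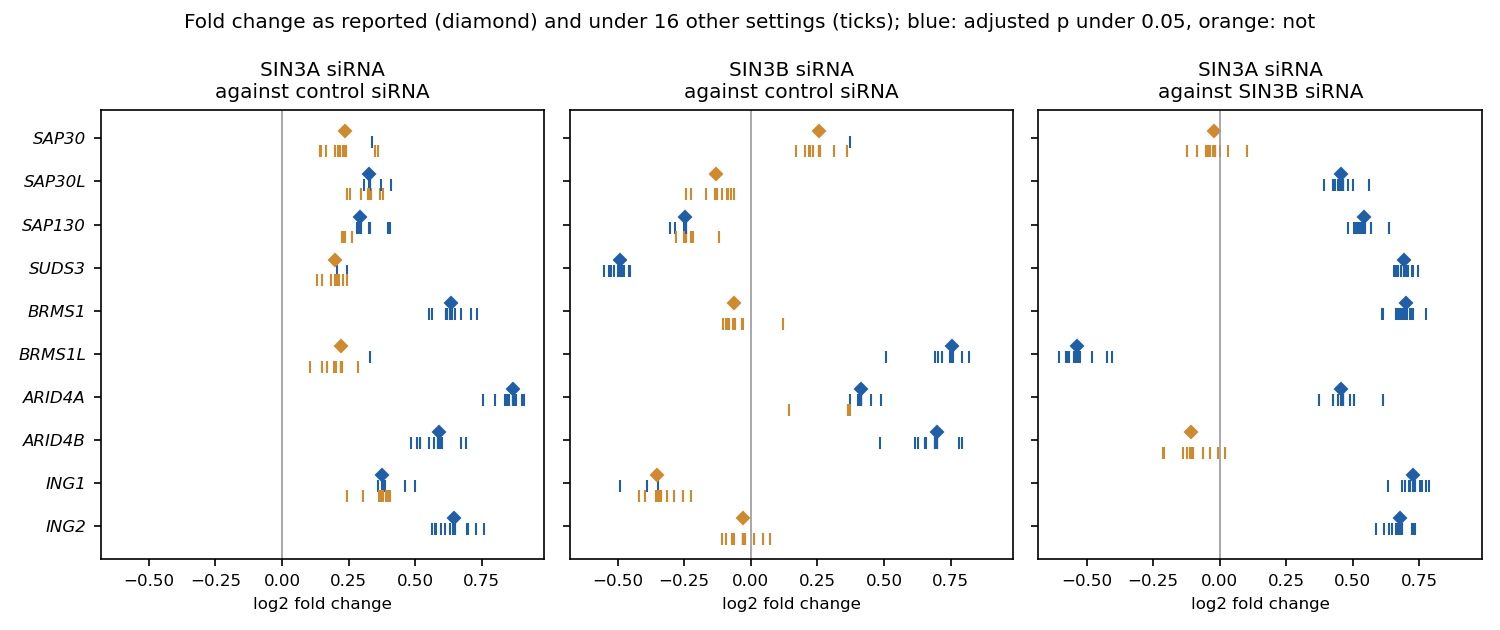
Log2 fold change (x axis) of each subunit as reported (diamonds) and under 16 other settings (ticks), blue in an upper row where the adjusted p was under 0.05 and orange in a lower row where it was not. In the direct comparison the 8 calls stay blue in every setting, and against control 4 calls (SIN3A siRNA) and 3 calls (SIN3B siRNA) do.

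Against these settings (other scaling, filters, tests and fits, and leaving out each library), 4 of the 7 calls with SIN3A siRNA held in all 16, those of ARID4A, ARID4B, BRMS1 and ING2. With SIN3B siRNA 3 of 5 held in all 16, those of SUDS3, BRMS1L and ARID4B. In the direct comparison all 8 held in all 16. Without SIN3A siRNA replicate 1, the library that stood apart, 5 of 10 members were called against control and 8 of 10 in the direct comparison. The 5 were ARID4A (0.845), ARID4B (0.602), ING2 (0.563), BRMS1 (0.551) and SAP130 (0.398), with edgeR adjusted p of 8.3e-05 to 0.00476.

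Short sequences in 3′ UTRs, picked from earlier results of this series, are described here, and sites of 4 members are shown. In 13393 tested genes with an annotated 3′ UTR, ACAGCCT or CAGCCTT stood in 41.7% of the genes that fell with SIN3B siRNA, in 21.9% of those that rose and in 25.8% of those not called. For SIN3A siRNA, GGTCTAA or AGGTCTA stood in 16.7% of the genes that fell, in 5.97% of those that rose and in 7.64% of those not called. Both pairs of sequences were taken from earlier results of these data, so these shares are a description and no independent support. Single sites with 8 bases on either side are printed from the longest coding transcript of GENCODE 29, in DNA letters with the 7-base sequence in capitals, first the CAGCCTT and ACAGCCT sites of SUDS3 and SAP130, which fell with SIN3B siRNA, then that of ARID4A, which rose, and last the GGTCTAA site of SAP30L, which rose with SIN3A siRNA.
SUDS3 site 1: tagctactCAGCCTTggaaatgg
SUDS3 site 2: ctgatgaaACAGCCTttcctaca
SUDS3 site 3: aacagaagCAGCCTTcctgttag
SAP130 site: gtgtttttCAGCCTTccggttta
ARID4A site: gcatcctgCAGCCTTgcctgtgt
SAP30L site: ggacttaaGGTCTAAgcgtcaga
The second SUDS3 site also matches the overlapping CAGCCTT, and the SAP30L site also matches AGGTCTA. Among the members, 5 had ACAGCCT or CAGCCTT in the 3′ UTR (SAP30L, SAP130, SUDS3, ARID4A and ING1), whose log2 fold changes with SIN3B siRNA were -0.13, -0.25, -0.49, 0.41 and -0.35. Both members called lower were among these 5, and ARID4A was called higher. The 5 without either sequence (SAP30, BRMS1, BRMS1L, ARID4B and ING2) were at 0.26, -0.06, 0.76, 0.70 and -0.03, with 0 called lower. In the same order, 3′ UTRs had 5026, 789, 3598, 1744 and 3407 bases with a match and 205, 543, 1486, 1630 and 144 without. A longer 3′ UTR has more places for a match, and neither this split nor the shares over all genes were matched for length. With SIN3A siRNA the single member with GGTCTAA or AGGTCTA, SAP30L, was at 0.33, within the range of 0.20 to 0.87 of the other 9. Outside the members, RBBP4 had GGTCTAA and AGGTCTA and was at -0.61 with SIN3A siRNA (called lower). KDM5A had GGTCTAA and was at -0.24 (not called). ACAGCCT or CAGCCTT also stood in ING3 and ARID1B, at 0.73 and 0.48 with SIN3B siRNA, both called higher. Also with a match were SIN3A, HDAC2, RBBP4, PHF12, ING5, ARID3A and ARID3B, which were not called with SIN3B siRNA. The part of these sequences in the changes was not tested.

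GC content moved with some of the SIN3B siRNA values. The longest transcripts of ARID4A, BRMS1L and ARID4B, which rose, had 37.5%, 37.9% and 39.1% GC, the lowest of the 10, and SUDS3, which fell, was next at 44.5%. BRMS1 was highest at 61.6%. Offsets for GC content and exon length moved the SIN3B siRNA values to 0.142 for ARID4A, 0.509 for BRMS1L and 0.485 for ARID4B. The last 2 were still called, and SUDS3 was left at -0.497. With SIN3A siRNA the same offsets lowered ARID4A from 0.869 to 0.756, ARID4B from 0.589 to 0.506 and BRMS1L from 0.221 to 0.106. They raised the other members, among them BRMS1 from 0.633 to 0.733 and SAP30 from 0.235 to 0.337. The part of GC content in the changes with either siRNA was not tested.

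The rest of the complex was mixed in direction. Of the 6 core genes (SIN3A, SIN3B, HDAC1, HDAC2, RBBP4 and RBBP7), 2 rose and 2 fell with SIN3A siRNA, and 1 rose and 1 fell with SIN3B siRNA, with SIN3A and SIN3B themselves among the falls. The shares called were 66.7% and 33.3%, each counting the targeted gene, beside 22.7% and 23.6% of all tested genes. RBBP4, a histone-binding WD-repeat protein, fell with SIN3A siRNA by 0.61 ± 0.06 on the log2 scale (edgeR adjusted p = 1.6e-06). HDAC1, one of the deacetylases that SUDS3 tethers, rose with both siRNAs, by 0.48 ± 0.06 and 0.38 ± 0.06 (edgeR adjusted p = 2.8e-05 and 0.00024), as the ARID4 genes did.

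Of 5 other associated genes (SINHCAF, OGT, TET1, SAP18 and SAP25), 4 were tested, with 1 rise in each comparison with control: TET1 with SIN3A siRNA and SAP18 with SIN3B siRNA. That is 25% of the tested 4 in each comparison, close to the 22.7% and 23.6% of all tested genes. SAP25 was under the floor. Of 6 genes of the SIN3B-type complex (PHF12, MORF4L1, KDM5A, KDM5B, EMSY and GATAD1), 2 rose and 1 fell with each siRNA, and in the direct comparison 2 were higher and 3 lower with SIN3A siRNA. Among the latter KDM5A, a histone demethylase, was at -0.55 ± 0.09 (edgeR adjusted p = 0.00012), and KDM5B, its paralog, was higher by 0.79 ± 0.09 (edgeR adjusted p = 1.5e-06). Of the 6 genes, 50% were called with each siRNA and 83.3% in the direct comparison, beside 22.7%, 23.6% and 27.1% of all tested genes. Their median log2 fold changes were 0.054 with SIN3A siRNA and 0.131 with SIN3B siRNA, beside 0.35 and -0.048 for the 10 subunits.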

How the data were processed

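RNA from 9 HEK293T samples was sequenced after stranded poly-A preparation with a TruSeq kit, per the labels. The submitters' processing notes name Trimmomatic 0.36, HISAT2 2.1.0, HTSeq, DESeq2 1.20.0 and the build GRCh38; annotation and strand setting are not given in the sources used here. The authors deposited a table of read counts per gene and a table of FPKM values. The gene length implied by the deposited FPKM was unrelated to exon length (Spearman rho -0.006), so FPKM was compared only within a gene, and levels between genes are TMM-scaled CPM per kilobase of merged GENCODE 29 exons. The deposited counts went unchanged into edgeR 4.0.16 under R 4.3.3, with TMM, filterByExpr (minimum count 10, total 15) and quasi-likelihood F-tests in 1 fit of 9 libraries (6 residual degrees of freedom). P-values were two-sided and Benjamini-Hochberg adjusted over 16686 genes in each of 3 comparisons, with a threshold of 0.05. Members, lists and sequences searched were chosen with earlier results of these data known. Genes were named by a rule: the 10 members, both targets, other complex genes, family relatives outside the complex and the 5 genes nearest to the member with the lowest adjusted p against control. HDAC1, SAP18 and the relatives given with values were named after their values were seen. A marker gene of the line is not reported here. The scripts were tested on simulated data. Alternatives were other scaling factors, no filter, counts divided by 4, fits of 6 libraries, a replicate block, offsets for GC content and length (mgcv 1.9.3), limma 3.58.1 on log2 FPKM with pseudocounts of 1 and 0.1, DESeq2 1.42.0 and leaving out each library. Figures used matplotlib 3.10.9.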

Additional observations from a re-analysis of the deposited data

How the results depend on the processing

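Under upper-quartile factors 4 of the 10 subunits were called with SIN3A siRNA in place of 7 (ARID4A, ARID4B, BRMS1 and ING2). These factors shift the median log2 fold change of all tested genes from -0.002 to -0.07. With offsets for GC content and length 9 were called with SIN3A siRNA, all but BRMS1L, and the median was 0.042. With these offsets 4 were called with SIN3B siRNA and 8 in the direct comparison. Leaving out each library gave 2597 to 3948 genes called and 5 members called in every case for SIN3A siRNA, 2601 to 3349 genes in place of 3934 and 3 to 5 members in place of 5 for SIN3B siRNA, and 3313 to 4738 genes and 8 members in the direct comparison. The 2601 genes came without SIN3B siRNA replicate 2, and 3 members remained called without SIN3B siRNA replicate 2 or 3. Fewer samples enter these fits. In fits of only the 6 libraries compared, 3113 genes were called for SIN3A siRNA, 5317 for SIN3B siRNA and 3893 in the direct comparison. Members called were 5, 6 and 8 in that order. In the SIN3B siRNA fit, without the SIN3A siRNA libraries, ING1 also passed (-0.349, edgeR adjusted p = 0.0464). The replicate numbers share no stated batch, and deviations of same-numbered libraries had correlations of -0.027 to 0.036. With the replicate block 7, 4 and 8 members and 3429, 3616 and 4236 genes were called in the 3 comparisons, and SAP130 lost its call with SIN3B siRNA (-0.242, edgeR adjusted p = 0.0589). Values that changed sign were all close to 0 and not called. With offsets for GC content and length BRMS1 was at 0.119 and ING2 at 0.044 with SIN3B siRNA, and ARID4B at 0.021 in the direct comparison. Leaving out each library, ING2 with SIN3B siRNA ranged from -0.108 to 0.073, with 0.073 and 0.013 without control replicate 3 and SIN3B siRNA replicate 3. SAP30 in the direct comparison ranged from -0.123 to 0.102, with 0.102, 0.030 and 0.002 without SIN3A siRNA replicate 3, SIN3B siRNA replicate 2 and SIN3B siRNA replicate 3. Where no value shows it, the cause was not tested. Of the values of single members under other settings, 428 kept direction and side of the threshold, 36 lost and 8 gained a call, and 8 changed sign.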

Other observations

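Relatives of the ING and ARID4 proteins that belong to other chromatin complexes were followed beside the members. With SIN3A siRNA 0 of the 3 other ING genes were called by edgeR, beside 22.7% of all tested genes, and 0 had an unadjusted p under 0.05. Their log2 fold changes were -0.06 ± 0.11 (ING3), 0.00 ± 0.15 (ING4) and 0.05 ± 0.09 (ING5), with edgeR adjusted p of 0.75, 0.99 and 0.73. With SIN3B siRNA ING3, a subunit of the NuA4 acetyltransferase complex, rose from 19.2 to 31.9 CPM in the group means (0.73 ± 0.11, edgeR adjusted p = 0.00011). Its difference between the siRNAs was -0.79 ± 0.11 (SIN3A minus SIN3B, edgeR adjusted p = 3.1e-05).

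Of 8 ARID genes outside the SIN3 complex, 2 were called with each siRNA, a share of 25% beside 22.7% (SIN3A siRNA) and 23.6% (SIN3B siRNA) of all tested genes. ARID3A (0.46 ± 0.10, edgeR adjusted p = 0.0024) and ARID5A (0.59 ± 0.11, edgeR adjusted p = 0.00079) rose with SIN3A siRNA. With SIN3B siRNA 2 others rose, ARID1B (0.48 ± 0.11, edgeR adjusted p = 0.0035) and ARID2 (0.55 ± 0.11, edgeR adjusted p = 0.00090), which are subunits of SWI/SNF remodelling complexes. In the direct comparison these 4 genes were called, the first pair higher and the second pair lower with SIN3A siRNA.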
